A study of Mus musculus with 20 samples.

Results

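The hormone genes and transcription factors of the islet cells other than β-cells were read in islets of mice that lack *Mfn1*, *Mfn2* or both in β-cells. The 8 genes are the glucagon gene *Gcg* and the α-cell factors *Irx1* and *Irx2*, the somatostatin gene *Sst* and the δ-cell factor *Hhex*, the pancreatic polypeptide gene *Ppy* with the peptide YY gene *Pyy*, and the ghrelin gene *Ghrl*. They were taken by name, with earlier results of these data known. All 8 were found among the 28632 genes of the count table, with reads for each in every library.

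Islets came from 12-week-old mice of both sexes on a C57BL/6N background and were kept in culture for a day before RNA was taken. The 4 groups were 6 Ctrl, 4 β-Mfn1KO, 5 β-Mfn2KO and 5 β-Mfn1/2DKO libraries. The knockouts carry loxP-flanked *Mfn1* (exon 4), *Mfn2* (exon 6) or both, and Cre recombinase knocked in at *Ins1*, so that deletion is meant for β-cells and the cells that make glucagon, somatostatin, pancreatic polypeptide or ghrelin keep both genes. The labels give the knockouts as Mfn1-/-, Mfn2-/- and Mfn1-/-;Mfn2-/- and the controls as wild type, whereas the study's methods pool as controls littermates that carry Cre without floxed alleles or floxed alleles without Cre, so a Ctrl library may or may not carry Cre. Ctrl held 3 female and 3 male libraries, β-Mfn1KO 3 and 1, β-Mfn2KO 2 and 3, and β-Mfn1/2DKO 2 and 3.

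Glucagon from α-cells raises hepatic glucose output, somatostatin from δ-cells restrains the release of both insulin and glucagon, and pancreatic polypeptide and peptide YY belong to the neuropeptide Y family. Ghrelin is made by a rare islet cell type that is most abundant before birth. *Irx1* and *Irx2* are Iroquois homeodomain factors enriched in α-cells, and *Hhex* is a homeodomain factor needed for δ-cell identity.

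Some facts of the series bear on every value that follows. Total counts ran from 12400687 to 20329064 in Ctrl, from 15745680 to 16685381 in β-Mfn1KO, from 15110046 to 59533407 in β-Mfn2KO and from 65533388 to 122947313 in β-Mfn1/2DKO, so depth and genotype cannot be told apart between β-Mfn1/2DKO and Ctrl. Counts were scaled with TMM, the normalization of edgeR that sets the libraries on one scale from the bulk of their genes, and are given as normalised counts. The targeted genes followed the labels: *Mfn1* was at 621 to 770 normalised counts in β-Mfn1KO and 687 to 1062 in β-Mfn1/2DKO against 1518 to 1807 in Ctrl, and *Mfn2* was at 1474 to 1688 in β-Mfn2KO and 2022 to 2131 in β-Mfn1/2DKO against 3089 to 4373 in Ctrl. The acinar score, which is the mean log2 CPM of 17 exocrine markers, lay between 1.69 and 5.61 in 17 libraries. It was higher in the other 3, at 7.41 in β-Mfn2KO replicate 4, 8.38 in β-Mfn1/2DKO replicate 4 and 9.73 in β-Mfn1/2DKO replicate 5. In these bulk samples, fewer cells of a type and less RNA per cell cannot be told apart.

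The members lie at 6 places in the genome (GRCm38, GENCODE release 21 coordinates). *Gcg* lies at chr2:62474530-62483650 on the minus strand, *Sst* at chr16:23889573-23890958 on the minus strand, *Hhex* at chr19:37434810-37440731 on the plus strand and *Ghrl* at chr6:113716119-113719880 on the minus strand. *Irx1* (chr13:71957921-71963723, minus) and *Irx2* (chr13:72628820-72634198, plus) are neighbours with 665.1 kb between them, and *Ppy* (chr11:102099930-102101319, minus) and *Pyy* (chr11:102106676-102107832, minus) lie 5356 bases apart. Values are sums over all exons of a gene. No stretch of 75 bases of the transcripts of *Gcg*, *Irx1*, *Irx2*, *Sst*, *Hhex*, *Ppy* or *Pyy* is shared with another gene, and the longest run that *Ppy* and *Pyy* share is 10 bases, so the 2 peptide genes were counted apart. *Ghrl* is less certain, because the antisense gene *Gm26982* overlaps its exons with a like count (a mean of 89.4 counts per library against 91.2 for *Ghrl*), and whether reads were counted by strand is not given in the sources used here.

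The 150 bases before the RefSeq transcript start (GRCm38.p6, gene strand, 5′ to 3′) are shown for the hormone gene with the most counts and for the neighbouring pair *Ppy* and *Pyy*, whose levels varied together between libraries. Capitals mark the TATA box letters TATAAA or, on the opposite strand, TTTATA.

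Gcg, chr2:62483654-62483803, minus: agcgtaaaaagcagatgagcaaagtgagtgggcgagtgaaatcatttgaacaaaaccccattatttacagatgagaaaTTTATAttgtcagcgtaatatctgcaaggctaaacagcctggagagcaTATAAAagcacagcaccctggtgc

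Ppy, chr11:102101320-102101469, minus: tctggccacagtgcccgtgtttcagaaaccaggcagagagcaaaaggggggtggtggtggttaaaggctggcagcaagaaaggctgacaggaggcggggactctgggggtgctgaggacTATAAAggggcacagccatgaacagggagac

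Pyy, chr11:102107833-102107982, minus: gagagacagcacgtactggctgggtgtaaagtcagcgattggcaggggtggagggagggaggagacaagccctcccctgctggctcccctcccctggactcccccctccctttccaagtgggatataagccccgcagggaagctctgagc

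The TATA letters on the gene's own strand begin 24 bases before the start of *Gcg* and 31 before that of *Ppy*, and are not in the *Pyy* window. The *Sst* promoter, not printed, holds the cAMP response element letters TGACGTCA, which read the same on both strands, 48 bases before the start. Of 32851 mouse promoters searched over 250 bases before the start, 12.4% hold TATAAA on either strand, 1.55% hold TGACGTCA and 4.84% hold the homeodomain core TAATTA. RefSeq promoters were matched for 7 of the 8 members, and those of *Irx2*, *Hhex* and *Ghrl* hold none of the 3 motifs within that window.

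In Ctrl islets the 4 peptide hormone genes were among the most abundant mRNAs. On a scale of CPM per kb of exon, *Gcg* stood at 18560 ± 7570 (SD, n = 6), rank 4 of 28579 genes, below *Ins2*, *Ins1* and *Iapp* only. *Ppy* followed at 6026 ± 1590 (rank 5), *Sst* at 3717 ± 902 (rank 8) and *Pyy* at 1485 ± 175 (rank 17). The 3 transcription factors and *Ghrl* were lower by orders of magnitude: *Irx2* was at 6.92 ± 2.07, *Irx1* at 6.40 ± 1.62, *Hhex* at 3.59 ± 0.676 and *Ghrl* at 2.68 ± 1.33. *Irx2* and *Irx1* did not differ beyond their spread on this scale, nor did *Hhex* and *Ghrl*, and the ranges of mean ± SD of *Ppy* and *Sst* overlapped.

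None of the 8 genes passed the test in any of the 4 comparisons. Each was tested with edgeR's quasi-likelihood test in a fit over all 20 libraries, and calls were made at an adjusted p under 0.05 over all 28632 genes. The count was 0 of 8 in β-Mfn1KO against Ctrl, where 0.0279% of all genes were called, and 0 of 8 in β-Mfn2KO against Ctrl, where 0.0559% were called. It was also 0 of 8 in β-Mfn1/2DKO against Ctrl, where 16.5% of all genes were called (9.59% higher and 6.86% lower), and in β-Mfn1/2DKO against β-Mfn2KO, where 13.0% were called. DESeq2 called 0 of 8 in each comparison too. At an unadjusted p under 0.05 edgeR gave 1, 0, 2 and 2 of the 8 in the same order, beside 7.44%, 4.22%, 27.8% and 25.8% of all genes. The median log2 fold change of the 8 was 0.10, -0.14, -0.08 and 0.19, against 0.00, 0.01, 0.03 and 0.03 over the 13492 genes with a mean of at least 50 normalised counts.

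**Figure D1:**
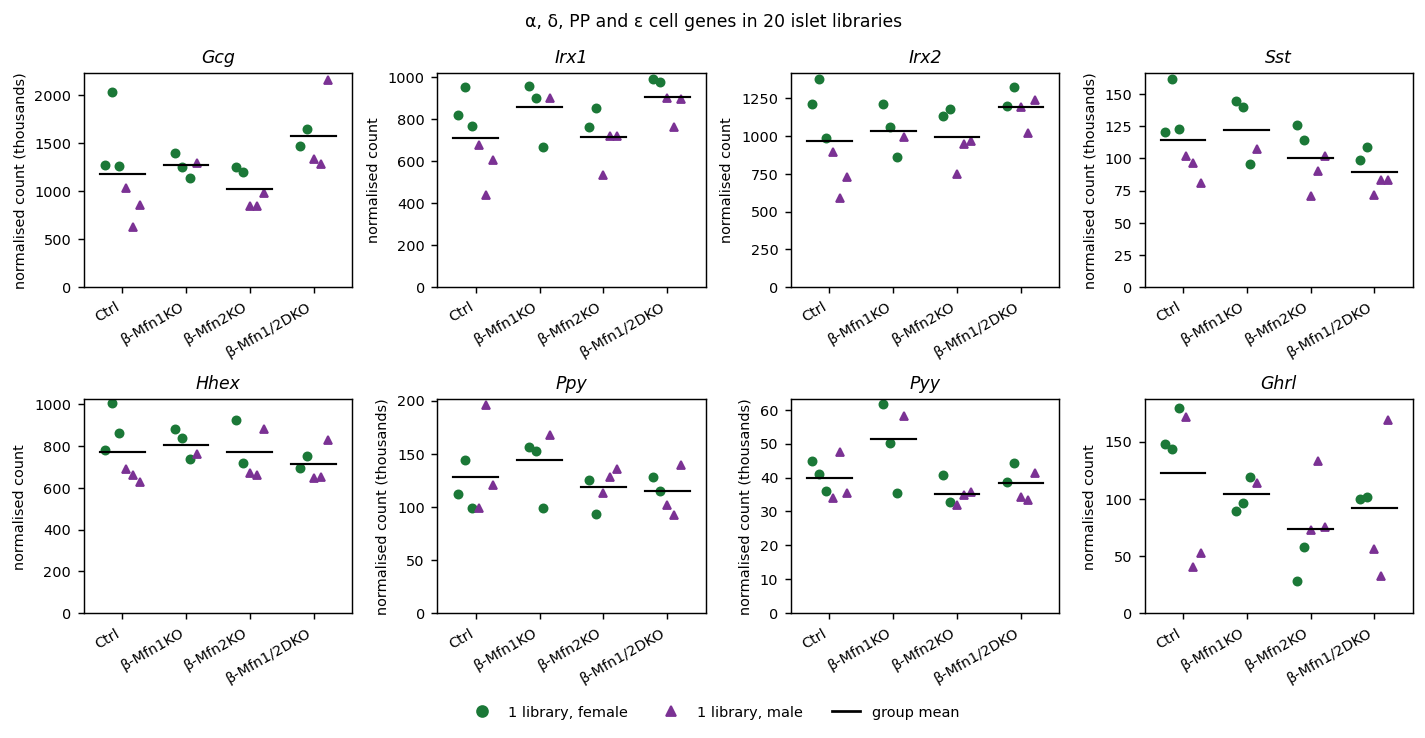
Normalised counts (y axis, linear from 0, in units of 1000 for *Gcg*, *Sst*, *Ppy* and *Pyy*) of the 8 genes in each of 20 libraries, by genotype (x axis), with circles for female and triangles for male libraries and a bar at the group mean. For each gene the points of every knockout overlap those of Ctrl, and for *Gcg* the 5 β-Mfn1/2DKO libraries lie above the 5 β-Mfn2KO libraries.

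*Gcg*, *Irx1* and *Irx2* had their highest mean normalised counts in β-Mfn1/2DKO, without passing the test. Normalised counts of the 4 peptide hormone genes are given in units of 1000. *Gcg* ran in Ctrl from 625.3 over a median of 1142 to 2033. It stood at 1391, 1249, 1137 and 1293 in β-Mfn1KO and at 1252, 1199, 843.2, 838.3 and 976.6 in β-Mfn2KO. In β-Mfn1/2DKO it stood at 1464, 1644, 1330, 1277 and 2150. The Ctrl libraries thus covered a range that held all but 1 of the other libraries, and every β-Mfn1/2DKO library was above every β-Mfn2KO library. The log2 fold change of *Gcg* was 0.42 (SE 0.21, adjusted p = 0.194) in β-Mfn1/2DKO against Ctrl, with a 95% interval of 0.99- to 1.80-fold. Against β-Mfn2KO it was 0.62 (SE 0.22, adjusted p = 0.0637), with an interval of 1.13- to 2.11-fold. The single knockouts were at 0.11 (SE 0.22) and -0.20 (SE 0.21) against Ctrl.

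*Irx1* ran from 437 over 723 to 954 normalised counts in Ctrl. It was at 960, 902, 668 and 901 in β-Mfn1KO and at 762, 853, 533, 722 and 719 in β-Mfn2KO. In β-Mfn1/2DKO the libraries stood at 993, 977, 904, 764 and 898, all above the Ctrl median and 2 of them above the highest Ctrl library. On the log2 scale the difference was 0.35 (SE 0.14, adjusted p = 0.107) against Ctrl and 0.34 (SE 0.15, adjusted p = 0.149) against β-Mfn2KO. *Irx2*, its neighbour, ran from 589 over 941 to 1377 in Ctrl and stood at 1199, 1323, 1192, 1018 and 1237 in β-Mfn1/2DKO, 0.30 above Ctrl on the log2 scale (SE 0.16, adjusted p = 0.215). In the single knockouts *Irx2* was between 746 and 1209 in all 9 libraries.

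Several alternatives moved these 3 genes over the threshold, and 1 control library did so alone. Ctrl replicate 2, a female library, had the highest *Gcg*, *Irx1*, *Irx2*, *Sst* and *Hhex* of its group. Without it, against the other 5 Ctrl libraries, the log2 fold changes in β-Mfn1/2DKO were 0.65 for *Gcg* (adjusted p = 0.0144), 0.45 for *Irx1* (0.0299) and 0.44 for *Irx2* (0.0479). Leaving out the control library that is highest for these genes raises their fold changes by construction, so these calls are no separate support. With sex as a covariate *Irx1* (0.39, adjusted p = 0.027) and *Irx2* (0.37, adjusted p = 0.0416) were called and *Gcg* was not (0.51, adjusted p = 0.0524). Against β-Mfn2KO, *Gcg* was called in 5 of 13 alternatives to the scaling, filter, covariates or choice of libraries, with adjusted p from 0.0185 to 0.189 over the 13. The 13 leave aside the replicate number as a block, which also called *Gcg* and is given at the end. One of the 13 set the 5 β-Mfn1/2DKO libraries against the 2 deep β-Mfn2KO libraries (replicates 4 and 5). There the log2 fold change was 0.84 (adjusted p = 0.046). Without β-Mfn1/2DKO replicates 4 and 5, those with the high acinar scores, none of the 3 was called, at 0.35 for *Gcg*, 0.45 for *Irx1* and 0.37 for *Irx2* against Ctrl.

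*Sst* and *Hhex* had their lowest mean normalised counts in β-Mfn1/2DKO, without passing the test. The sign of the *Hhex* difference from Ctrl depended on the scaling. In units of 1000, *Sst* ran from 80.68 over 110.9 to 161.7 in Ctrl. It was at 145, 139.6, 95.55 and 107 in β-Mfn1KO and at 125.8, 114.1, 70.5, 90.41 and 101.5 in β-Mfn2KO. In β-Mfn1/2DKO it stood at 98.56, 108.8, 71.52, 83.05 and 83.53, all below the Ctrl median and overlapping the lower Ctrl libraries. The log2 fold change against Ctrl was -0.36 (SE 0.16, adjusted p = 0.16), with an interval of 0.62- to 0.99-fold, and against β-Mfn2KO -0.17 (SE 0.17, adjusted p = 0.57). In β-Mfn1KO and β-Mfn2KO it was 0.10 (SE 0.17) and -0.18 (SE 0.16) against Ctrl.

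*Hhex* ran from 629 over 733 to 1003 normalised counts in Ctrl and stood at 696, 753, 644, 653 and 830 in β-Mfn1/2DKO. Its log2 fold changes were the smallest of the 8 genes on average. They were 0.06 (SE 0.12), -0.01 (SE 0.12) and -0.11 (SE 0.11) in β-Mfn1KO, β-Mfn2KO and β-Mfn1/2DKO against Ctrl, and the 95% intervals of all 3 lay between 0.787- and 1.24-fold.

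The pancreatic polypeptide family showed its largest difference in β-Mfn1KO. *Pyy* ran from 33.96 over 38.69 to 47.66 in Ctrl and stood at 61.53, 50.22, 35.38 and 58.21 in β-Mfn1KO, so 3 of the 4 libraries were above every Ctrl library and 1 was below all Ctrl libraries but 1. The β-Mfn1KO mean was 1.29-fold that of Ctrl in the fit (0.36 on the log2 scale, SE 0.13), which did not pass (adjusted p = 0.572). *Pyy* was at 40.76, 32.91, 31.95, 34.84 and 35.64 in β-Mfn2KO and at 38.74, 44.32, 34.13, 33.24 and 41.24 in β-Mfn1/2DKO, with log2 fold changes of -0.18 (SE 0.12) and -0.06 (SE 0.12).

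*Ppy* ran from 99.04 over 116.5 to 195.9 in Ctrl, where the highest value came from replicate 5, the library with the lowest *Gcg*. It stood at 156.5, 152.8, 98.81 and 167.9 in β-Mfn1KO, at 125.7, 93.15, 113.4, 127.8 and 135.4 in β-Mfn2KO and at 127.7, 115.1, 101.8, 92.19 and 139.5 in β-Mfn1/2DKO. The libraries of every knockout overlapped those of Ctrl, and the log2 fold changes were 0.16, -0.11 and -0.16 (SE 0.17, 0.16 and 0.16). The sign in β-Mfn1/2DKO was not stable for either gene: with the authors' normalization factors *Ppy* was at 0.05 and *Pyy* at 0.11. With total-count scaling *Pyy* was at 0.08, where the median of genes with a mean of at least 50 normalised counts was 0.17. *Ghrl* had between 28.2 and 179 normalised counts in the 20 libraries and the widest intervals, for example 0.423- to 1.31-fold in β-Mfn1/2DKO against Ctrl.

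**Figure D2:**
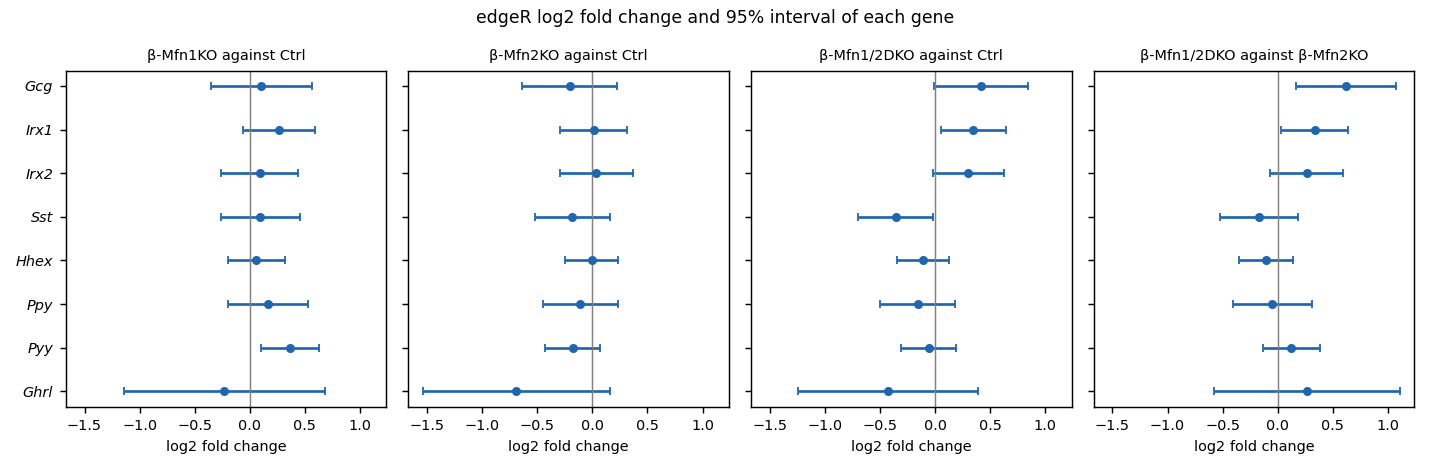
Log2 fold change (x axis) of each of the 8 genes (y axis) in the 4 comparisons, as points with 95% intervals from the edgeR fit over 20 libraries. In β-Mfn1/2DKO against Ctrl the points of *Gcg*, *Irx1* and *Irx2* lie at 0.30 to 0.42 and that of *Sst* at -0.36, and the widest interval in every panel is that of *Ghrl*.

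Ratios of 2 genes within a library need no scaling between libraries. Those of *Gcg* to *Ins2* and of *Sst* to *Gcg* separated the β-Mfn1/2DKO libraries from all others. The other ratios overlapped between β-Mfn1/2DKO and Ctrl. Of 32 tests (8 ratios in 4 comparisons, two-sided exact permutation tests with Benjamini-Hochberg adjustment over the 32), 6 had an adjusted p under 0.05, 2 in β-Mfn1/2DKO against Ctrl and 4 in β-Mfn1/2DKO against β-Mfn2KO. In the single knockouts against Ctrl it was 0 of 16, also before adjustment. *Sst* counts were 3.89% to 6.73% of *Gcg* counts in β-Mfn1/2DKO and 7.95% to 15.5% in Ctrl, 8.27% to 11.2% in β-Mfn1KO and 8.36% to 10.8% in β-Mfn2KO. Every β-Mfn1/2DKO library was below every library of the other groups. The ratio fell to 0.564 of its Ctrl level (difference of mean log2 ratios -0.82, exact permutation p = 0.00216, adjusted p = 0.0423) and to 0.583 of its β-Mfn2KO level (-0.78, exact permutation p = 0.00794, adjusted p = 0.0423).

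Relative to *Ins2*, the main insulin gene of the mouse, the glucagon and somatostatin genes rose in β-Mfn1/2DKO. *Gcg* counts stood at 54.9% to 116% of *Ins2* counts there, and at 9.57% to 51.5% in Ctrl and 15.2% to 24.4% in β-Mfn2KO, with no overlap. This is 2.97-fold the Ctrl level (exact permutation p = 0.00433, adjusted p = 0.0423) and 3.31-fold the β-Mfn2KO level (exact permutation p = 0.00794, adjusted p = 0.0423). *Ins2* itself fell by 1.09 on the log2 scale (SE 0.13, adjusted p = 4.45e-06), from 3948 to 6531 (in units of 1000 normalised counts) in Ctrl to 1859 to 2588 in β-Mfn1/2DKO, a larger difference than the 0.42 of *Gcg*. *Sst* against *Ins2* was 1.93-fold its β-Mfn2KO level (adjusted p = 0.0423) and 1.67-fold its Ctrl level, where it did not pass (exact permutation p = 0.026, adjusted p = 0.0924). With *Ins1* added to *Ins2* it passed (difference of mean log2 ratios 0.97, adjusted p = 0.0396 from exact permutation). *Ins1* carries the Cre in the knockouts and was at 0.566 of Ctrl in β-Mfn1KO and 0.522 in β-Mfn2KO. A lower *Ins1* raises any ratio to the sum, and the part of the Cre insertion in this was not tested.

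Of the other ratios, *Pyy* to *Gcg* fell to 0.708 of its β-Mfn2KO level (exact permutation p = 0.00794, adjusted p = 0.0423) and was at 0.686 of its Ctrl level (adjusted p = 0.213). *Ppy* to *Gcg* was at 0.629 and 0.651 (adjusted p = 0.0635 and 0.213). No ratio of a factor to its hormone passed. *Irx1* to *Gcg* was at 0.932, *Irx2* to *Gcg* at 0.914 and *Hhex* to *Sst* at 1.18 of the Ctrl level, with adjusted p from 0.125 to 0.83. Against β-Mfn2KO they were at 0.83, 0.789 and 1.04, with adjusted p of 0.272, 0.0635 and 0.89. These tests share libraries and genes. The smallest exact permutation p is 0.00216 for 5 libraries against 6 and 0.00794 for 5 against 5.

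The ratio tests depend on the number of libraries. Without β-Mfn1/2DKO replicates 4 and 5, *Sst* to *Gcg* still did not overlap, with differences of -0.70 against Ctrl (exact permutation p = 0.0119, the smallest that 3 against 6 allow) and -0.66 against β-Mfn2KO, but no adjusted p was under 0.05. The same held when any single β-Mfn1/2DKO library was left out, with the difference against Ctrl between -0.89 and -0.69 over all libraries left out in turn. On the authors' normalized signal, whose factors differ between genes, the difference in *Sst* to *Gcg* was -0.76 against Ctrl and its adjusted p was 0.0635. Against the 2 deep β-Mfn2KO libraries alone it was -0.89 (exact permutation p = 0.0476 over only 21 splits, adjusted p = 0.0635).

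**Figure D3:**
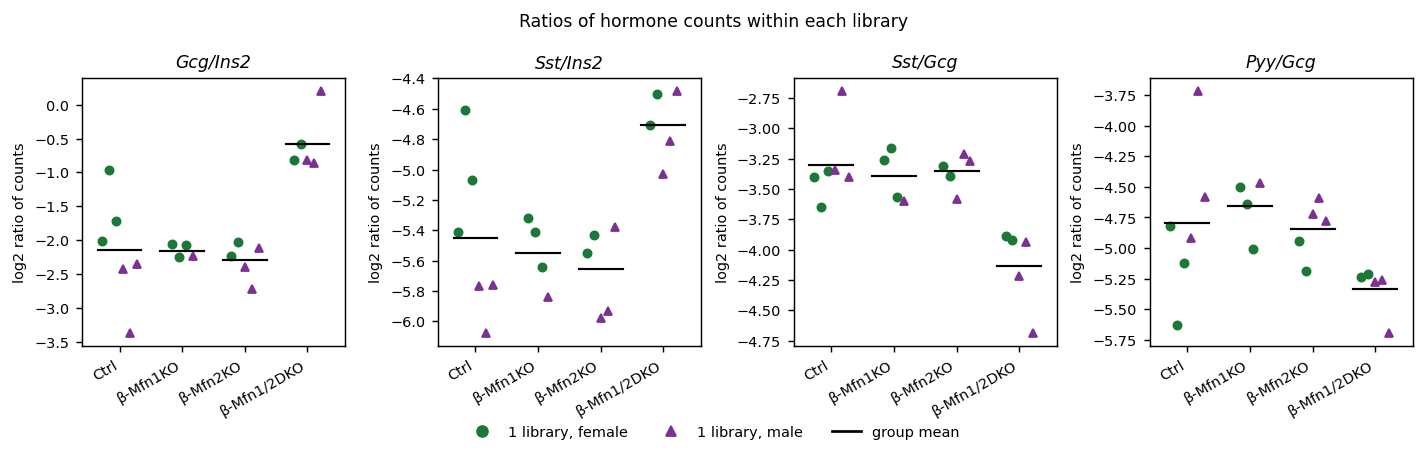
Log2 ratio of counts (y axis) of *Gcg* to *Ins2*, *Sst* to *Ins2*, *Sst* to *Gcg* and *Pyy* to *Gcg* in each library by genotype (x axis), with circles for female and triangles for male libraries and a bar at the group mean. In β-Mfn1/2DKO all 5 *Gcg* to *Ins2* points lie above, and all 5 *Sst* to *Gcg* points below, every point of the other groups.

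The makeup of hormone mRNA differed in the same libraries, which is given here as a description. Together *Gcg*, *Sst*, *Ppy*, *Pyy* and *Ghrl* took up 3.44 ± 1.18% of all counts in Ctrl (SD, n = 6), 3.66 ± 0.283% in β-Mfn1KO (n = 4), 3.06 ± 0.452% in β-Mfn2KO (n = 5) and 4.68 ± 0.799% in β-Mfn1/2DKO (n = 5). *Ins1* and *Ins2* took up 15 ± 2.66%, 15 ± 1.31%, 13.7 ± 1.34% and 6.63 ± 0.94%. Of the counts of all 7 genes the 5 non-insulin hormones thus made up 10.2% to 32.2% in Ctrl, 18.7% to 21.0% in β-Mfn1KO, 14.7% to 20.4% in β-Mfn2KO and 36.7% to 53.9% in β-Mfn1/2DKO. Within the 5, *Gcg* made up 64.8% to 85.4% in Ctrl and 84.7% to 89.0% in β-Mfn1/2DKO. *Sst* made up 8.02 ± 1.08% in Ctrl, with a minimum of 6.79%, and 3.46% to 5.70% in β-Mfn1/2DKO, with no overlap.

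**Figure D4:**
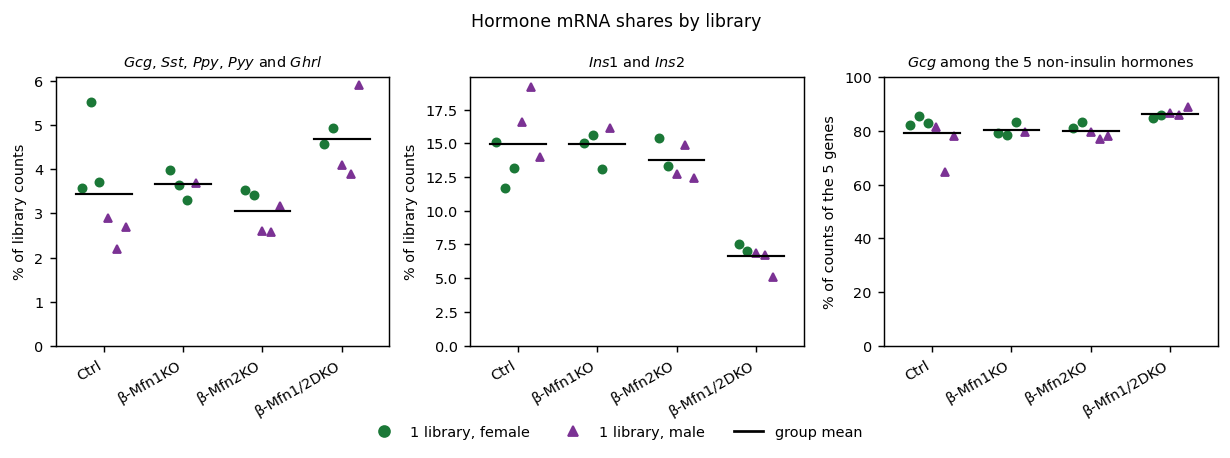
Share of library counts (y axis, %) from the 5 non-insulin hormone genes (left) and from *Ins1* and *Ins2* (middle), and share of *Gcg* among the 5 (right), in each library by genotype, with a bar at the group mean. The middle panel shows 5.05% to 7.55% in β-Mfn1/2DKO against 11.7% to 19.2% in Ctrl.

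Within genotypes the α-cell and δ-cell genes varied together. The measure was Pearson's r of log2 CPM over the 20 libraries after each gene was centred on its genotype means, and it is a description, since the libraries also share sex, depth and islet preparation. *Irx1* and *Irx2* had r = 0.956, and each was the gene most like the other of 13491 ranked. *Gcg* had r = 0.89 with *Irx2*, 0.831 with *Hhex* and 0.824 with *Irx1*. *Sst* had r = 0.808 with *Irx2*, 0.794 with *Hhex*, 0.764 with *Irx1* and 0.71 with *Gcg*. *Ppy* and *Pyy* had r = 0.767. With the 5 α-cell and δ-cell genes, r ran from -0.12 to 0.218 for *Ppy* and from 0.213 (*Gcg*) to 0.499 (*Sst*) for *Pyy*.

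The genes most like *Gcg* of all those with a mean of at least 50 normalised counts were *Gpx3* (r = 0.971), *Eef1a2* (0.958), *Wnk3* (0.944), *Klhl13* (0.933) and *Edn3* (0.92). The gene most like *Sst* was *Rbp4* (0.943), which encodes the retinol carrier and was on the δ-cell list, and *Lsg1* (0.866), *Cct3* (0.855) and *Gars* (0.847) were also among the 5 most like it. For *Ppy* they were *Klf10* (0.814), *Pyy*, *Chst1* (0.753), *Gm10382* (0.75) and *Zfp622* (0.748), and for *Pyy* they were *Sdf2* (0.868), *Ubald1* (0.798), *Spef1* (0.797), *Rnf113a2* (0.785) and *Gm4316* (0.785).

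**Figure D5:**
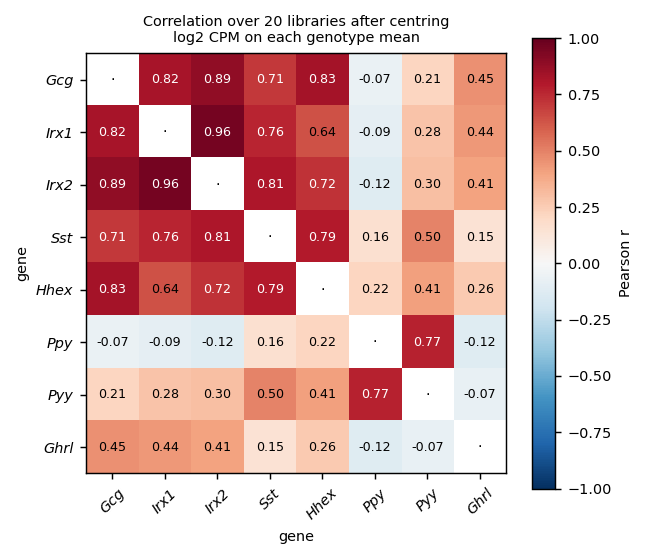
Pearson's r between each pair of the 8 genes (both axes) over 20 libraries, from log2 CPM centred on each genotype mean, on a colour scale from -1 to 1. The block of *Gcg*, *Irx1*, *Irx2*, *Sst* and *Hhex* holds values of 0.638 to 0.956, and the rows of *Ppy* and *Pyy* are high for each other.

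The members were also compared between the sexes, and with genotype in the fit only *Sst* passed. The part of sex in the shared variation was not tested. The comparison was chosen after the values were seen. With genotype and sex in the fit, *Sst* was lower in males by 0.43 on the log2 scale (SE 0.0845, adjusted p = 0.0377, where 0.126% of all genes passed), and in each genotype its male mean was below its female mean. In Ctrl the 3 female libraries had 120.2, 161.7 and 123.1 (in units of 1000) and the 3 male libraries 101.5, 96.71 and 80.68. The log2 difference was -0.38 for *Gcg* (adjusted p = 0.303), -0.35 for *Irx2* (0.169), -0.28 for *Irx1* (0.274) and -0.19 for *Hhex* (0.372), and it was -0.06 for *Pyy* and 0.14 for *Ppy*. In Ctrl alone *Gcg* was at 1269, 2033 and 1257 in females and 1028, 625.3 and 851.6 in males, without overlap (log2 difference -0.86, adjusted p = 0.422, where 0.0314% of all genes passed). In β-Mfn1/2DKO the male *Gcg* values of 1330, 1277 and 2150 were above every male Ctrl value, whereas the female values of 1464 and 1644 lay within the female Ctrl range. The difference between the sexes in the log2 change from Ctrl was 0.90 (SE 0.32, adjusted p = 1.0).

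A test of whether *Mfn1* loss acted differently with and without *Mfn2* passed for 0 of the 8 genes with edgeR, also at an unadjusted p under 0.05, while 5.92% of all genes passed. The largest differences were 0.52 for *Gcg* (SE 0.31, adjusted p = 0.417) and 0.50 for *Ghrl* (SE 0.60).

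Other genes of the same cells and of hormone signalling were read from lists. The median log2 fold change of 9 α-cell genes in β-Mfn1/2DKO against Ctrl was 0.22. It was 0.03 over the 13492 genes with a mean of at least 50 normalised counts. Of the 9, 1 passed, where 16.5% of all genes passed, and the 9 did not all go the same way. Over the 4 comparisons 0.0279% to 16.5% of all genes passed, and 4.22% to 27.8% had an unadjusted p under 0.05. Of 4 δ-cell genes 0 passed with edgeR in any comparison, also at an unadjusted p under 0.05. Their median log2 fold change in β-Mfn1/2DKO against Ctrl was 0.04. The 2 with the highest mean counts were *Rbp4*, at -0.18 (adjusted p = 0.501), and the ghrelin receptor gene *Ghsr*, at -0.03 (adjusted p = 0.949). The others were higher than in Ctrl. Of the other islet peptides and the ghrelin acyltransferase 0 of 5 passed with edgeR, and 1 had an unadjusted p under 0.05, in β-Mfn1KO, with *Npy* at -0.45 (adjusted p = 0.543) and *Cartpt* at -0.12 (adjusted p = 0.886) in β-Mfn1/2DKO against Ctrl.

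Of 12 measured hormone receptor genes, 4 passed in β-Mfn1/2DKO against Ctrl, 2 in each direction, where 16.5% of all genes passed. The glucagon receptor gene *Gcgr* rose from 1979 ± 349 to 2984 ± 503 (log2 fold change 0.59, adjusted p = 0.0022) and *Sstr2*, the main somatostatin receptor of α-cells, rose from 92.1 to 144 (0.63, adjusted p = 0.035). The incretin receptor gene *Gipr* fell from 4306 ± 595 to 2384 ± 557 (-0.85, adjusted p = 0.000169) and the somatostatin receptor gene *Sstr3* from 8293 to 6658 (-0.32, adjusted p = 0.00232). *Gipr* and *Sstr3* also passed against β-Mfn2KO, where 13.0% of all genes passed, and 0 receptor genes passed in the single knockouts, also before adjustment.

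Of 16 genes listed under prohormone processing or as shared endocrine transcription factors, 5 fell and 1 rose in β-Mfn1/2DKO against Ctrl. Of all genes 6.86% fell and 9.59% rose. β-cells add to these bulk values, and which cells the differences came from was not tested. Of 6 prohormone processing genes 2 fell in β-Mfn1/2DKO against Ctrl: *Pcsk1*, a convertase of proinsulin, by 0.97 on the log2 scale (adjusted p = 2.44e-05) and *Cpe*, the carboxypeptidase that trims prohormones, by 0.29 (adjusted p = 0.0063). Of 10 shared endocrine transcription factors 3 fell, *Isl1* by 0.29, *Pax6* by 0.35 and *Nkx2-2* by 0.30, and 1, *Insm1*, rose by 0.33 (adjusted p = 0.00504, 0.000335, 0.00607 and 0.00614). Of the 3 other Iroquois genes measured 0 passed, also before adjustment, with *Irx3* at 30.6 and *Irx5* at 2.43 normalised counts in Ctrl. All 10 β-cell genes fell, with a median of -1.05, among them *Ins1* (-2.60), *Slc2a2* (-1.60), *Ucn3* (-1.36) and *Mafa* (-1.31). *Ins1*, which carries the Cre in the knockouts, also fell in β-Mfn1KO (-0.82, adjusted p = 0.0324) and β-Mfn2KO (-0.94, adjusted p = 0.00144).

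Some markers of cells outside the endocrine islet also differed between β-Mfn1/2DKO and Ctrl. Of all genes 9.59% rose and 6.86% fell there, and 27.8% had an unadjusted p under 0.05. For the acinar markers, the members were also fitted without β-Mfn1/2DKO replicates 4 and 5 and with the acinar score as a covariate. The part of the other markers in the values above was not tested. Of 17 acinar markers 15 rose and 1 fell, and their summed level was 550 to 45680 CPM in β-Mfn1/2DKO against 364 to 1930 in Ctrl, with a higher median in Ctrl (1028 against 895), 193 to 674 in β-Mfn1KO and 557 to 7327 in β-Mfn2KO. *Pnlip*, pancreatic lipase, and *Cpa1*, a carboxypeptidase, were at log2 fold changes of 3.95 and 4.04 with overlapping groups, *Cel* and *Cpb1* at 3.82 and 3.78, and *Ptf1a*, the factor that defines acinar cells, was at 0 in 3 libraries. Of 7 endothelial markers 6 rose, with a summed level of 262 to 416 against 165 to 246 CPM, among them *Plvap* (0.86), *Cdh5* (0.77), *Tek* (0.68) and *Pecam1* (0.66). Of 7 ductal markers 3 rose (*Krt19*, *Krt7* and *Muc1*), with summed levels of 889 to 1123 against 621 to 863. Of 7 mesenchymal markers 1 rose (*Pdgfrb*, 0.67; summed 48.4 to 106 against 17.7 to 335), the 4 glial markers had summed levels of 10.7 to 14.9 against 9.01 to 10.9, and of 6 leukocyte markers 0 passed and 1 had an unadjusted p under 0.05 (*Cd68* at -0.33, *Csf1r* at -0.55; 18.9 to 39.96 against 19.4 to 69.0). With the acinar score as a covariate 0 of the 8 members were called in each comparison.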

How the data were processed

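The deposited count table holds expected counts per gene, which the authors estimated with RSEM (version 1.3.1) after trimming with cutadapt (2.3), quality checks with FastQC (0.11.8) and alignment to the mouse genome with STAR (2.6.1b), per the labels and methods. A second deposited table holds the authors' normalized signal, made with DESeq2 (1.26.0), and was used only for alternatives. The counts were used as deposited and mapped by Ensembl ID, and 71 of 28632 genes had no symbol. No column of another sample was present, and no filter on low counts was applied.

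The 8 members and the 14 gene lists (the members among them) were chosen with earlier results of these data known. All 8 members are named, as are the 5 genes most correlated with each of *Gcg*, *Sst*, *Ppy* and *Pyy*, and up to 4 genes per list of large change in β-Mfn1/2DKO, except for some genes that are not reported here. Counts were fitted with edgeR (4.0.16, limma 3.58.1, R 4.3.3), with TMM scaling, the quasi-likelihood test in 1 fit over 20 libraries (16 residual degrees of freedom), and Benjamini-Hochberg adjustment over all genes of a comparison. The replicates are separate samples by their labels, and where no source ties each to its own mouse the p-values measure the spread between these samples. For ratios within a library, every split of the libraries was enumerated (NumPy 2.4.6) to give a two-sided exact permutation p. DESeq2 (1.42.0) was an alternative. Tested on simulated data for β-Mfn1/2DKO against Ctrl over 28632 genes, the edgeR script found 48 of 50 genes changed 1.5-fold and 48 of 50 changed 2-fold. It also called 16 unchanged genes. The changed genes were drawn at random from those with a mean CPM over 5, which *Ghrl* does not reach. The simulation therefore does not give the power for any single member.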

Additional observations from a re-analysis of the deposited data

Results flagged for a closer look

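Of 64 groups of ratios and levels with 4 to 6 libraries, 6 had 1 library whose distance from the rest passed Dixon's 95% limit, and chance alone gives about 1 in 20 groups. In β-Mfn1/2DKO it was replicate 5 each time, the library with the highest *Gcg* count and the highest acinar score, where log2 *Gcg* to *Ins2* was 0.21, log2 *Pyy* to *Gcg* -5.70, log2 *Irx1* to *Gcg* -11.23 and log2 *Irx2* to *Gcg* -10.76. In Ctrl, replicate 5 had the highest *Sst* to *Gcg* ratio (log2 -2.69) and replicate 2 the lowest *Irx1* to *Gcg* ratio (log2 -11.06). The first is the control library with the lowest *Gcg* count and the second the one with the highest. All 6 flagged ratios hold *Gcg*, and the 64 groups share libraries and genes. The 6 can therefore not be set against 1 in 20 as separate draws.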

How the results depend on the processing

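Outside the fits that leave out 1 library, 508 single values kept their direction and side of the threshold, 25 changed sign, 13 crossed to an adjusted p under 0.05 and 22 crossed out of it. The number of members called in β-Mfn1/2DKO against Ctrl, 0 of 8, was 2 with total-count scaling, 2 with sex as a covariate, 1 with the replicate number as a block (*Sst*, -0.44, adjusted p = 0.00154) and 0 to 3 when 1 library was left out. Against β-Mfn2KO it was 2 with total-count scaling, 1 each with the filterByExpr filter, a fit to those groups alone, sex as a covariate, the replicate block (*Gcg*, 0.64, adjusted p = 0.0184) and the deep libraries only, and 0 to 1 when 1 library was left out (*Gcg* without β-Mfn1/2DKO replicate 4, 0.71, adjusted p = 0.0498). Same-numbered libraries had a mean correlation of deviations of 0.191 against -0.0415 for the others, but not every pair was over 0.1 (19 of 27, range -0.128 to 0.464), so the numbers were not taken to pair the samples. As same-numbered pairs, *Sst* to *Gcg* was lower in 5 of 5 in β-Mfn1/2DKO against Ctrl (mean -0.84), and 5 pairs allow no exact permutation p under 0.0625. The ratio counts, 2 and 4, were 0 and 0 on the authors' signal and without β-Mfn1/2DKO replicates 4 and 5, 0 with the deep libraries only and 0 to 5 in both when 1 library was left out. *Ins1* carries the Cre in the knockouts and was lower in each of them than in Ctrl. With it added to *Ins2*, *Sst* to insulin passed in β-Mfn1/2DKO against Ctrl (0.971, adjusted p = 0.0396 from exact permutation). The cause of these shifts was not tested, except that fewer libraries give fewer splits.

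The values that changed sign were the following. In β-Mfn1KO, *Sst* was at -0.0238 with the replicate block. In β-Mfn2KO, *Irx1* was at -0.00905 with the block and -0.018 with thinned counts, *Irx2* at -0.00766 with the authors' factors and -0.00396 with the block, and *Hhex* at 0.0256 with total-count scaling and 0.0255 with sex. In β-Mfn1/2DKO against Ctrl, *Hhex* was at 0.0237 and *Pyy* at 0.0816 with total-count scaling, and *Ppy* at 0.0512 and *Pyy* at 0.109 with the authors' factors. Against β-Mfn2KO, *Ppy* was at 0.0557 and 0.172 with these 2 scalings, and *Ghrl* at -0.184 with depth class as a covariate and -0.137 in deep libraries. With *Ins1* added to *Ins2*, *Gcg* to insulin was at 0.161 in β-Mfn1KO and 0.00902 in β-Mfn2KO and *Sst* to insulin at 0.0697 in β-Mfn1KO. On the authors' signal, *Ppy* to *Gcg* was at 0.0425 in β-Mfn1KO and *Hhex* to *Sst* at -0.0258 against β-Mfn2KO. As same-numbered pairs in β-Mfn1KO, *Sst* to *Gcg* was at 0.0382, *Ppy* to *Gcg* at 0.426 (higher in 4 of 4) and *Hhex* to *Sst* at 0.0174. Without β-Mfn1/2DKO replicates 4 and 5, *Irx1* to *Gcg* was at 0.0494 against Ctrl and *Hhex* to *Sst* at -0.0229 against β-Mfn2KO.

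Leaving out 1 library at a time gave ranges that cross 0. In β-Mfn1KO these were -0.0228 to 0.333 for *Gcg*, -0.02 to 0.222 for *Irx2*, -0.262 to 0.224 for *Gcg* to *Ins2*, -0.231 to 0.0626 for *Sst* to *Ins2*, -0.17 to 0.031 for *Sst* to *Gcg*, -0.157 to 0.272 for *Ppy* to *Gcg*, -0.0224 to 0.36 for *Pyy* to *Gcg* and -0.0983 to 0.0223 for *Hhex* to *Sst*. In β-Mfn2KO they were -0.334 to 0.0223 for *Gcg*, -0.097 to 0.117 for *Irx1*, -0.0715 to 0.171 for *Irx2*, -0.0744 to 0.0877 for *Hhex*, -0.174 to 0.0502 for *Ppy*, -0.405 to 0.0806 for *Gcg* to *Ins2*, -0.116 to 0.0756 for *Sst* to *Gcg*, -0.0863 to 0.343 for *Ppy* to *Gcg* and -0.212 to 0.171 for *Pyy* to *Gcg*. In β-Mfn1/2DKO against Ctrl they were -0.235 to 0.00303 for *Ppy*, -0.1 to 0.0125 for *Pyy* and -0.186 to 0.0198 for *Irx1* to *Gcg*, and against β-Mfn2KO -0.125 to 0.0416 for *Ppy*, -0.0669 to 0.61 for *Ghrl* and -0.0114 to 0.138 for *Hhex* to *Sst*.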
